A study of Mus musculus with 9 samples.

Results

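The comparison set 4 arrays of mouse primary cortical neurons taken through oxygen-glucose deprivation (OGD) against 3 arrays of neurons that were not deprived. The members were chosen by label and scan: of the 9 arrays of the series, these 7 were recorded in the same scan, and Day 2 and Day 4 of the maturation series, recorded in another, stay out. All arrays carried RNA of neurons from the cortex of embryonic day 15 Swiss albino mouse embryos, grown in Neurobasal medium with B27. The OGD arrays were Day 6 cultures kept in glucose-free, deoxygenated salt solution for 2, 4, 6 or 8 hr and then returned for 24 hr to reperfusion medium lacking B27. The undeprived arrays, called no OGD here, were maturing neurons harvested on Day 6, maturing neurons harvested on Day 8, and a Day 6 control for the deprivation (0 hr OGD) handled like the deprived cultures in every step but OGD. Only the 0 hr OGD array therefore shares the 24 hr without B27, and Day 6 and Day 8 differ from the OGD arrays in medium and handling as well as in OGD. Each condition has 1 array. RNA of 4 experiments was pooled for each array except those of 6 and 8 hr OGD, for which the methods give no pooling. The arrays within a group are thus different durations or culture ages, and a p-value measures the difference between groups against that mixed spread. The labels do not give the sex of the embryos.

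OGD removes oxygen and glucose together and is a common culture model of cerebral ischemia, with the return to medium standing for reperfusion. Neurons depend on oxidative metabolism of glucose for the ion gradients behind signalling, and deprivation followed by reperfusion can end in delayed death. In a whole-culture array, fewer living cells of a type and less RNA per cell cannot be told apart. Long intergenic non-coding RNAs (lincRNAs) are transcribed from stretches between protein-coding genes. Many are present at low levels and many are specific to a cell type. The array also carries probes for ultraconserved regions (uc.), stretches identical between human, rat and mouse, on either strand. A set of housekeeping genes serves as reference genes. The other probes are named by an accession or by a number of the array design, and numbered probes have no gene name in the tables used here. Of the 29 cell type marker genes listed for this work, 0 carry a named probe, so that the neuronal label could not be checked on these arrays. With the hypoxia, immediate early, heat shock, cell death and study gene lists added, 0 of 71 listed genes have a named probe.

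Signals differed between arrays before any comparison of groups. Probes called well above background by the scanner software numbered from 23205 (Day 6) to 30676 (0 hr OGD) on the no OGD arrays and from 19788 (8 hr OGD) to 29293 (4 hr OGD) on the OGD arrays, so the ranges overlapped. The lowest value in the processed table lay between 2.38 and 2.54 on the log2 scale, and a probe at this floor has no measured level. In the array position field of the scanner files, the 3 no OGD arrays and 2 hr OGD shared row 1 and the other OGD arrays lay in row 2. The part of this position in the results below was not tested beyond the fit with row as a block. That fit rests on 2 hr OGD against no OGD within row 1.

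Root mean square differences in log2 value over the 29929 probes of the processed table did not divide the arrays cleanly by OGD. The smallest difference was 0.54, between 2 hr and 4 hr OGD, and 8 hr OGD lay 0.70 and 0.67 from these. Day 6 lay as near to them, at 0.68 from each, and farther from 0 hr OGD, at 0.71. The no OGD arrays lay 0.59 to 0.71 from each other. The 6 hr OGD array stood apart from the other OGD arrays. It lay 0.82 on average from them and 0.74 from the no OGD arrays, whereas each of 2, 4 and 8 hr OGD lay nearer to the other OGD arrays. Day 6 lay almost as near to the OGD arrays, at 0.73 on average, as to the other no OGD arrays, at 0.68. The largest difference was 0.99, between 0 hr and 8 hr OGD. The main counts and class medians below are therefore also given without 6 hr OGD.

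**Figure D1:**
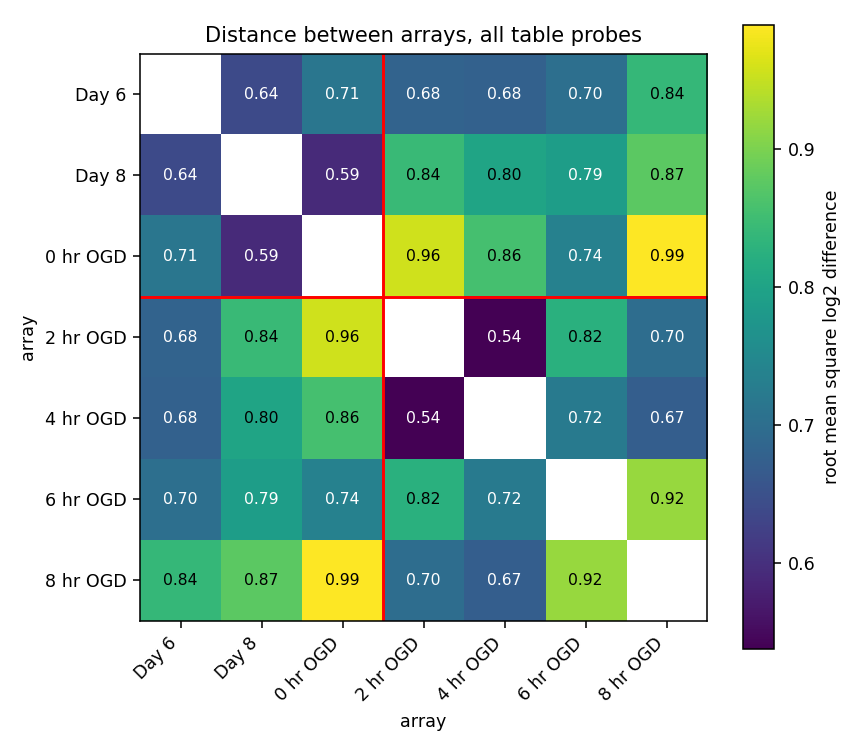
Root mean square difference in log2 processed value between each pair of the 7 arrays, over all table probes. The red lines divide no OGD from OGD arrays. The 2, 4 and 8 hr OGD arrays lie 0.54 to 0.70 from each other, and 6 hr OGD lies 0.72 to 0.92 from them.

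Against the mean of the no OGD arrays, the probes past an SLR (signal log ratio, here a log2 difference) of 1 in either direction numbered 4287, 3387, 2881 and 5353 of 29929 for 2, 4, 6 and 8 hr OGD. The counts had no order by duration. For scale, 2531 probes of Day 6, 1071 of Day 8 and 2160 of 0 hr OGD passed the same threshold against the mean of the other no OGD arrays. The 6 hr count thus lay close to the Day 6 count among undeprived arrays, but it was taken against a mean of 3 arrays in place of 2. On each OGD array more of these probes were lower than higher, with 2324 lower and 1963 higher at 2 hr and 3241 lower and 2112 higher at 8 hr. For the 17651 probes that were well above background on all 7 arrays the counts were 1356, 988, 516 and 2012 for 2, 4, 6 and 8 hr OGD, and 663 for Day 6. At 2 hr 670 of them were higher and 686 lower, and at 8 hr 1041 were higher and 971 lower. There was 1 array of each duration, so durations were not tested against each other.

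Between the groups, 229 of 29929 probes passed limma at an adjusted p under 0.05, which is 0.765% of the probes tested. Of these, 202 fell after OGD (0.675%) and 27 rose (0.0902%). At an unadjusted p under 0.05 there were 5027 probes (16.8%). In 4848 probes (16.2%) the values of the 4 OGD arrays and the 3 no OGD arrays did not overlap, 2235 with OGD higher (7.47%) and 2613 with OGD lower (8.73%). The probes that fell had a median SLR of -2.14 and those that rose a median SLR of 1.52. Much of the surplus of falls lay near the floor. Of the 202 probes that fell, 117 were not well above background on any OGD array, 58 on some and 27 on all 4. For those 117 the fall is known only as a bound, with a median of at least 1.55-fold, and the bound passed 1 in 102 of them and 2-fold in 40. In the others the bound shows no fall. Of the 27 probes that rose, 15 were not well above background on any no OGD array and 12 were so on all 7 arrays. Restricted to the 17651 bright probes, those well above background on every array, limma called 107 (0.606%), of which 37 rose (0.21%) and 70 fell (0.397%). Of the bright probes 18.6% separated, 1689 upward (9.57%) and 1586 downward (8.99%). The count of calls was 374 without 6 hr OGD, 104 without 2 hr, 93 without 4 hr, 66 without Day 8 and 53 without 0 hr OGD, and 34 with array row as a block. The rises among them numbered 101 without 6 hr OGD, 9 without 2 hr, 2 without 4 hr, 1 without Day 8 and 1 without 0 hr OGD. Falls outnumbered rises in each of these fits. With array weights, estimated from these same 7 arrays, limma called 11845 probes in place of 229, 6679 higher and 5166 lower. Without 6 hr OGD 11522 probes separated, and without Day 6 9389, but leaving out an array can only keep or add separated probes. Among the separated probes the OGD array nearest to the no OGD values was 6 hr OGD in 1205 of 2235 higher probes (53.9%) and in 1419 of 2613 lower probes (54.3%).

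By probe class, the lincRNA and ultraconserved probes separated upward more often than downward. Of 1579 lincRNA exon probes 152 separated upward (9.63%) and 86 downward (5.45%), beside 7.47% and 8.73% over all probes. Of 406 human lincRNA probes 36 separated upward (8.87%) and 18 downward (4.43%). Of 301 uc. probes 24 separated upward (7.97%) and 8 downward (2.66%). The 233 mouse lincRNA probes were more even, with 24 upward (10.3%) and 20 downward (8.58%). Probes named by accession leaned the other way, with 53 of 691 upward (7.67%) and 98 downward (14.2%). Among their 413 bright probes the lean was smaller, with 44 upward (10.7%) and 53 downward (12.8%), beside 9.57% and 8.99% of all bright probes. Class sizes and levels differ, and the differences between classes were not tested. Called probes were few in each lincRNA class: 6 lincRNA exon probes (0.38%), 1 mouse lincRNA probe (0.429%), 4 human lincRNA probes (0.985%) and 0 uc. probes, where 0.765% of all table probes were called. Of the accession-named probes 20 were called (2.89%), all lower after OGD, and in the fit of bright probes 2 of 413 were called. 

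Median SLRs of the lincRNA and uc. classes showed the same lean. The median SLR was 0.15 for lincRNA exon, 0.25 for mouse lincRNA, 0.31 for human lincRNA and 0.19 for uc. probes, beside 0.03 over all table probes. It was -0.01 for accession-named and 0.02 for numbered probes. The accession-named median changed sign to 0.04 among bright probes and 0.02 without 6 hr OGD. Array by array, against the mean of the no OGD arrays, the human lincRNA class had median SLRs of 0.49, 0.39 and 0.43 for 2, 4 and 8 hr OGD, but -0.13 for 6 hr. The mouse lincRNA class gave 0.41, 0.29 and 0.40 at 2, 4 and 8 hr and -0.08 at 6 hr. The lincRNA exon class gave 0.23, 0.20 and 0.24 at 2, 4 and 8 hr and -0.06 at 6 hr. The uc. class gave 0.28, 0.26 and 0.22 at 2, 4 and 8 hr and 0.02 at 6 hr. So 3 of 4 OGD arrays lay on the high side and 6 hr OGD lay near or below 0. Without 6 hr OGD the class medians were 0.22 for lincRNA exon, 0.38 for mouse lincRNA, 0.45 for human lincRNA and 0.29 for uc. probes. Without 0 hr OGD they were 0.10, 0.14, 0.16 and 0.14, and against 0 hr OGD alone 0.23, 0.49, 0.58 and 0.32. With normexp background correction they were 0.06, 0.11, 0.12 and 0.09. These medians all lay above 0, and each class moved by over 1.5 times under at least 1 of these choices. The no OGD arrays also differed among themselves in these classes. Human lincRNA probes of Day 6 had a median of 0.30 above the mean of Day 8 and 0 hr OGD, and those of 0 hr OGD had a median of -0.33 against Day 6 and Day 8. The median SLR of OGD was about as large as such shifts in human lincRNA probes (0.31). In mouse lincRNA probes 0.25 stood beside 0.24 for Day 6 and -0.28 for 0 hr OGD. In lincRNA exon probes 0.15 stood beside 0.13 and -0.09, and in uc. probes 0.19 stood beside 0.13 and -0.14. In each lincRNA and uc. class 2, 4 and 8 hr OGD lay farther from 0 than Day 6 and 0 hr OGD. The 6 hr OGD array lay nearer. The class medians of the groups overlapped in all 6 classes over all table probes. With only the bright probes the median SLR was 0.20, 0.35, 0.38 and 0.27 for lincRNA exon, mouse lincRNA, human lincRNA and uc. probes, beside 0.07 for all, and the uc. medians of the groups did not overlap.

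**Figure D2:**
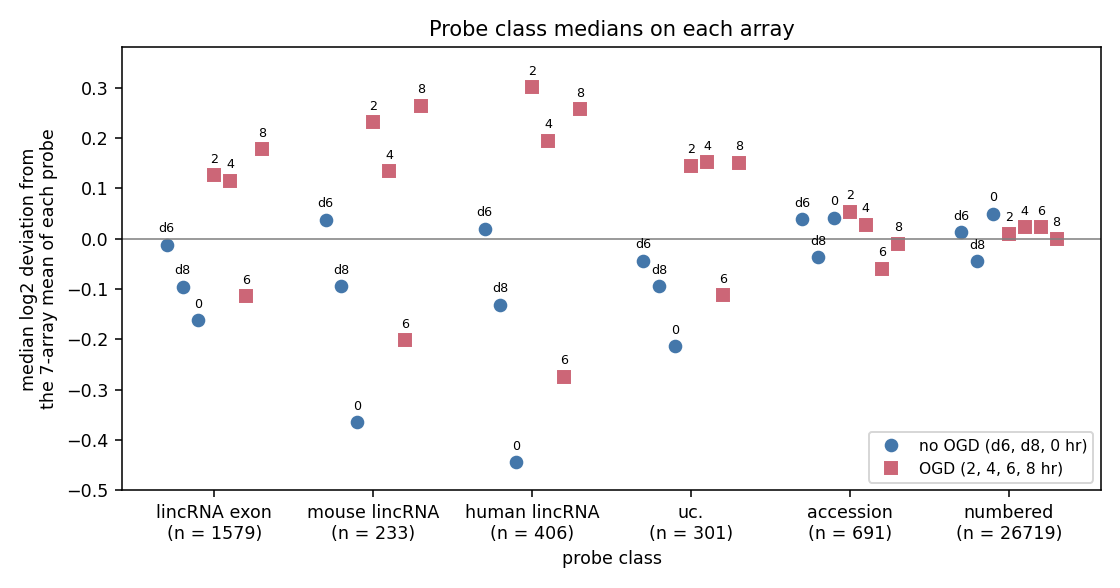
Median log2 deviation of each probe class from the 7-array mean of its probes, 1 point per array, with circles for no OGD (d6, d8 and 0 hr) and squares for OGD (2, 4, 6 and 8 hr). In the lincRNA and uc. classes 2, 4 and 8 hr OGD are highest and 6 hr OGD lies among the undeprived arrays, at -0.27 for human lincRNA.

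Among bright lincRNA probes, MM9LINCRNAEXON10765+ rose. Its log2 values were 8.2, 8.61 and 8.39 on Day 6, Day 8 and 0 hr OGD, and 9.64, 10.23, 10.05 and 9.45 at 2, 4, 6 and 8 hr OGD. All OGD arrays were higher, 6 hr included, with the highest at 4 hr. The SLR was 1.44 ± 0.26 (SE, n = 4 and 3) with an adjusted p of 0.0447 in limma. The call held in 1 of the 7 fits that left out an array, with adjusted p of up to 0.185. With array row as a block all 11 called lincRNA probes lost their calls, with adjusted p in limma from 0.108 to 0.447. For MM9LINCRNAEXON10765+ the SLR was then 1.25 (adjusted p 0.436). All 11 probes separated, so a fit that rests on 2 hr OGD could not change the sign of their SLRs. The fitted SLRs lay from 1.22 to 1.46 in the rises, in place of 1.39 to 1.58. In the falls, which rest partly on floor values, they lay from -2.28 to -1.33, in place of -2.97 to -1.51. With normexp 8 of the 11 lost their calls, and MM9LINCRNAEXON10765+, MM9LINCRNAEXON10484+ and humanlincRNA1166+ kept theirs. Scaling to the 75th percentile ended the calls of MM9LINCRNAEXON10765+ (adjusted p 0.169 in limma), MM9LINCRNAEXON10495+ (0.0543), MM9LINCRNAEXON10521- (0.0682), humanlincRNA1153- (0.083) and humanlincRNA1166+ (0.0643). Quantile normalization of the scanner signals ended those of MM9LINCRNAEXON10521- (0.0541) and humanlincRNA1166+ (0.0543). When limma was run on the bright probes alone, 4 more lincRNA exon probes were called, with adjusted p from 0.0572 to 0.114 over the whole table. MM9LINCRNAEXON11872+ was named by the selection rule given below, and the others were chosen after their values were seen. MM9LINCRNAEXON11395+ read 8.24, 8.36 and 8.35 without OGD and 9.53, 9.29, 9.29 and 9.19 with it. MM9LINCRNAEXON11872+ read 7.29, 7.20 and 7.24 without OGD and 8.08, 8.54, 8.31 and 8.52 with it. Both had a narrow spread in each group, with SDs of 0.06 and 0.05 without OGD and 0.14 and 0.21 with it. MM9LINCRNAEXON11995+ read 7.03, 6.86 and 7.23 without OGD and 8.35, 9.14, 11.02 and 8.87 with it. Here 6 hr OGD was the highest array, and without it the SLR was 1.74 in place of 2.30. With row as a block it was 1.31 (adjusted p 0.536 in limma). MM9LINCRNAEXON11587- went the other way, from 7.63, 8.47 and 8.79 to 6.69, 6.87, 6.63 and 7.09. Within the bright set the adjusted p in limma was 0.0189 for MM9LINCRNAEXON10765+ and, in the order named, 0.0451, 0.0333, 0.0487 and 0.0325 for the other 4.

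The lincRNA probes that fell by the whole-table test were mostly dim. For MM9LINCRNAEXON10484+ the values were 5.83, 6.62 and 6.86 on Day 6, Day 8 and 0 hr OGD and 4.15, 3.75, 3.47 and 2.51 at 2, 4, 6 and 8 hr OGD, with an adjusted p of 0.0152 in limma. It was well above background on the 3 no OGD arrays and on 1 OGD array, and at the floor at 8 hr OGD, so no fold is given. humanlincRNA1518+ read 4.55, 4.26 and 4.72 without OGD and 2.43, 2.62, 2.54 and 2.51 with it. It was above background on 1 no OGD array and on 0 OGD arrays, and its OGD values sat at or near the floor. The bound was 1.08-fold lower if all no OGD values are taken as measured, with an adjusted p of 0.00331 in limma. Of the 11 called lincRNA probes it was the one whose call held whichever of the 7 arrays was left out, but with normexp its adjusted p was 0.101 (SLR -0.38). humanlincRNA1166+, at 5.59, 6.17 and 6.35 against 4.06, 4.62, 4.57 and 4.85, had an adjusted p of 0.0492 in limma. It was above background on 2 of 4 OGD arrays, so no fold is given. MM9LINCRNAEXON10954- read 4.63, 4.83 and 4.98 without OGD and 3.01, 3.25, 2.54 and 2.51 with it, at least 1.33-fold lower. For MM9LINCRNAEXON10521- the bound was 1.46-fold and for humanlincRNA1153- 1.17-fold. The adjusted p values of these 3 were 0.0114, 0.0358 and 0.0308 in limma, and 0 of their OGD values were above background. MM9LINCRNAEXON11785- was above background on 1 of the 7 arrays, and its adjusted p in limma was 0.0116. Its bound came out below 1, so no fold is given.

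The remaining lincRNA rises lay below background without OGD. mouselincRNA0293+ read 3.66, 3.99 and 3.16 without OGD and 4.83, 5.17, 5.03 and 4.97 with it. The groups did not overlap, 3 OGD arrays were above background, and the difference was at least 1.76-fold (adjusted p of 0.0453 in limma). The call was lost whichever array was left out, with adjusted p from 0.0527 to 0.174. humanlincRNA0170+ and MM9LINCRNAEXON10495+ were above background on 1 and 2 OGD arrays, with adjusted p of 0.0292 and 0.0311 in limma. Their bounds were 1.05-fold and 1.1-fold higher if all OGD values are taken as measured. Probes that separated without being called included mouselincRNA1592+, which read 7.49, 8.66 and 9.29 without OGD and 6.32, 6.91, 7.07 and 7.19 with it, and mouselincRNA0188+, which read 7.71, 7.84 and 8.81 without OGD and 6.54, 7.03, 7.01 and 6.75 with it. Their adjusted p values in limma were 0.145 and 0.111, and both were above background on every array. The 0 hr OGD array is the control that shares the handling. With it as the only undeprived array the 11 called lincRNA probes could not change direction, since all had separated. Their SLRs were then from 1.08 to 1.84 in the rises and from -3.39 to -1.82 in the falls. That fit has 1 array in 1 arm, assumed to vary like the OGD arrays, so only the SLRs are given.

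**Figure D3:**
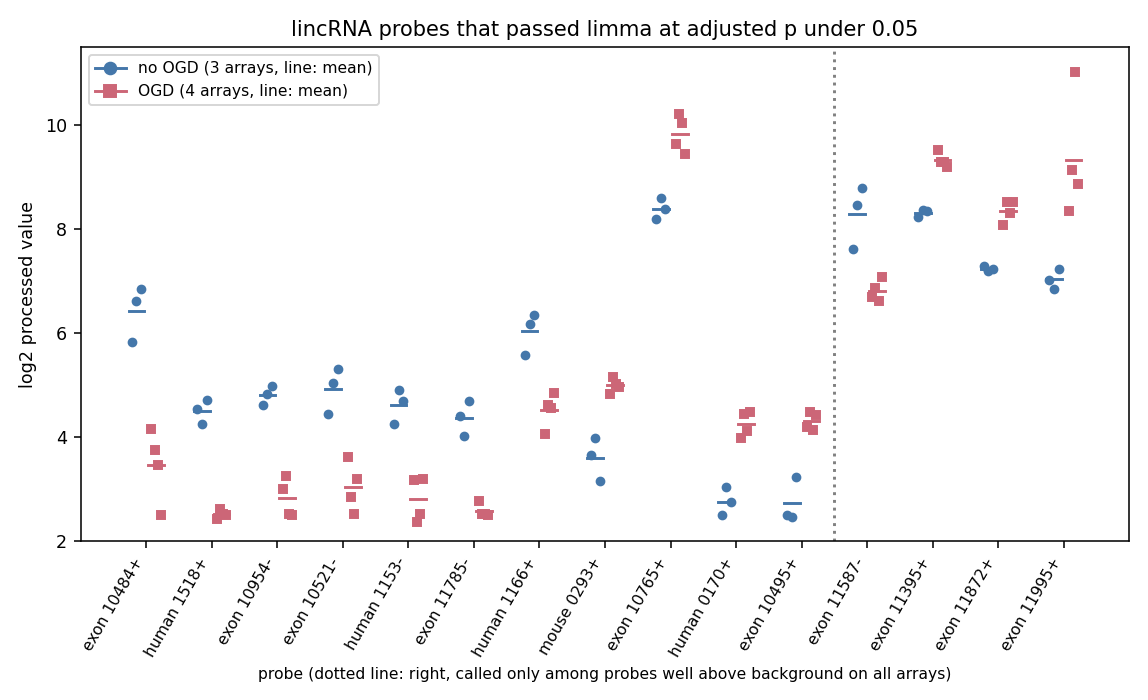
Log2 processed values of the 11 lincRNA probes called over the whole table and, right of the dotted line, of 4 called only among the bright probes. Circles are the 3 no OGD arrays, squares the 4 OGD arrays, and bars the group means. Most falls end near the floor at about 2.5, and MM9LINCRNAEXON10765+ rises from 8.40 to 9.84 on average.

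Of the 301 ultraconserved probes limma called 0, over the whole table and among the bright probes, and 46 had an unadjusted p under 0.05 (15.3%, beside 16.8% of all table probes). The brightest of the 8 described was uc.427+, at 10.77, 10.55 and 10.26 on Day 6, Day 8 and 0 hr OGD and 11.11, 11.62, 11.03 and 11.64 at 2, 4, 6 and 8 hr OGD. The groups did not overlap, with 8 hr OGD highest and 0 hr OGD lowest. Its SLR was 0.82 ± 0.25 (SE) and its adjusted p 0.207 in limma. The other rises that separated with the smallest p were uc.240-, uc.150+ and uc.434-, whose OGD means were 4.32, 5.48 and 5.38 against 3.26, 4.28 and 4.40 without OGD. The falls were uc.196+, uc.6-, uc.23- and uc.173-, with OGD means between 3.81 and 4.67 against 5.06 to 6.01. Apart from uc.427+ each of these probes was below the background threshold on some arrays. Of the rises, uc.240- was well above background on 0 no OGD and 2 OGD arrays, uc.150+ on 1 and 4, and uc.434- on 2 and 4. The 4 falls were well above background on all 3 no OGD arrays, and on 2 OGD arrays for uc.196+ and uc.23- and 1 for uc.6- and uc.173-. Among these 8 probes the adjusted p in limma ranged from 0.0944 to 0.214.

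Of 43 lncRNAs in the study's lists of maturation clusters, which the study chose on other arrays of the series together with Day 6 and Day 8, 6 match a probe name and all 6 are in the processed table. MM9LINCRNAEXON11613+ separated downward, from 4.90, 5.76 and 5.86 to 3.72, 4.54, 4.46 and 4.85, with an adjusted p of 0.201 in limma. MM9LINCRNAEXON10225-, MM9LINCRNAEXON10254-, MM9LINCRNAEXON10523+, MM9LINCRNAEXON10527+ and uc.64+ overlapped between groups, with SLRs from -0.48 to 0.46 and adjusted p of 0.651 or more in limma. MM9LINCRNAEXON10523+ was high on 1 array, at 6.09 at 8 hr OGD against 2.43 to 3.78 on the other 6.

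Probes whose RefSeq accession gives a gene name numbered 57 in the table, for 54 genes. Of these 13 separated downward and 0 upward, beside 8.73% and 7.47% of all table probes. Limma called 5, all lower after OGD, where 0.675% of all table probes were called lower. The 5 called were genes of chromosome Y: Gm20747, Gm20822, Gm20806, Gm20917 and Ssty2. Ssty2 and its relatives are multicopy Y genes known for expression in sperm-forming cells, and a probe of such a family can bind transcripts of other copies, so that the named gene cannot be told apart from its relatives. Gm20747 read 5.18, 5.74 and 6.63 on Day 6, Day 8 and 0 hr OGD and 2.43, 2.38, 2.54 and 2.51 at 2, 4, 6 and 8 hr OGD. Every OGD value was at the floor, and the difference was at least 2.73-fold (adjusted p of 0.00196 in limma). Gm20822 read 5.08, 4.71 and 4.89 without OGD and the same floor values with it, at least 1.41-fold lower with an adjusted p of 0.00101 in limma. Ssty2 read 4.72, 4.68 and 5.54 without OGD and 2.43, 3.32, 2.54 and 2.51 with it, at least 1.5-fold lower. Gm20806 and Gm20917 were at least 1.97-fold and 1.16-fold lower. The adjusted p in limma was 0.0155 for Ssty2, 0.0428 for Gm20806 and 0.0353 for Gm20917. The calls of Gm20747 and Gm20822 held whichever array was left out, and those of Ssty2, Gm20806 and Gm20917 in 5, 2 and 1 of the 7 such fits. With row as a block, 0 of the 5 were called, with adjusted p in limma from 0.0513 to 0.356, while their fitted differences, which rest on floor values, lay between -3.42 and -2.18 in place of -3.39 and -2.15. With normexp Gm20822 kept its call and the other 4 lost theirs, with adjusted p in limma from 0.0515 to 0.107, and the SLR of Gm20747 was -0.92.

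Not every Y-linked probe moved this way. Of the 10 in the table, 8 were lower on average and 6 separated downward (8.73% of all table probes did), with Gm20816 at 3.07, 4.82 and 5.20 without OGD and at the floor on all OGD arrays. Gm20867 sat at the floor on Day 6 too, at 2.51, against 4.92 and 5.26 on Day 8 and 0 hr OGD, so its groups overlapped by 1 undeprived array. The 2 Y-linked probes that were bright had higher means after OGD, with overlapping groups. Gm20823 read 9.47, 9.25 and 8.94 without OGD and 9.93, 9.64, 9.47 and 10.18 with it. Gm20738 read 9.48, 9.24 and 8.82 without OGD and 9.49, 9.28, 9.42 and 9.96 with it. Their adjusted p values in limma were 0.292 and 0.456. Of all 23 Y-linked probes on the array, 7, 12 and 18 were well above background on Day 6, Day 8 and 0 hr OGD, and 3, 5, 2 and 2 at 2, 4, 6 and 8 hr OGD. The share of negative-probe spots called well above background was 3.0%, 5.33% and 9.58% on the no OGD arrays and 7.17%, 9.17%, 1.17% and 0.833% on the OGD arrays. The 0 hr OGD array had both the highest such share and the most detected Y-linked probes. The part of background and of the embryos' sex in these values was not tested.

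Among other RefSeq-named genes, limma called 0 of 47 probes, where it called 0.765% of all table probes, and 10 had an unadjusted p under 0.05, as did 16.8% of all table probes. Hmgcs1 showed the largest difference of these probes. Hmgcs1 encodes the cytosolic HMG-CoA synthase of cholesterol synthesis. It was bright on every array, at 13.71, 13.32 and 13.46 on Day 6, Day 8 and 0 hr OGD and 12.51, 11.97, 12.13 and 11.36 at 2, 4, 6 and 8 hr OGD. The groups did not overlap, and 8 hr OGD was lowest. The SLR was -1.51 ± 0.29 (SE), a mean level 2.84-fold lower. Its adjusted p in limma was 0.0606 over the whole table and 0.0273 among the bright probes. With row as a block the SLR was -0.99 (adjusted p 0.506). The other 6 of the 7 non-Y probes that separated had smaller differences or larger spread and adjusted p of 0.212 or more in limma. H2ac19 and H2ac18, near-identical copies of a histone H2A gene whose probes may share transcripts, had means of 13.11 and 8.55 without OGD and 12.45 and 7.69 with it, and in both 8 hr OGD was lowest. Ccdc82 read 6.64, 8.57 and 7.06 without OGD and 5.91, 6.23, 6.64 and 5.95 with it, so that Day 6 and 6 hr OGD nearly met. Disp1, which releases lipid-modified Hedgehog from the producing cell, read 5.98, 5.65 and 6.03 without OGD and 5.18, 4.97, 5.25 and 5.37 with it. Dhrsx had means of 7.23 without OGD and 6.57 with it, and 6 hr OGD lay nearest to the undeprived arrays.

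**Figure D4:**
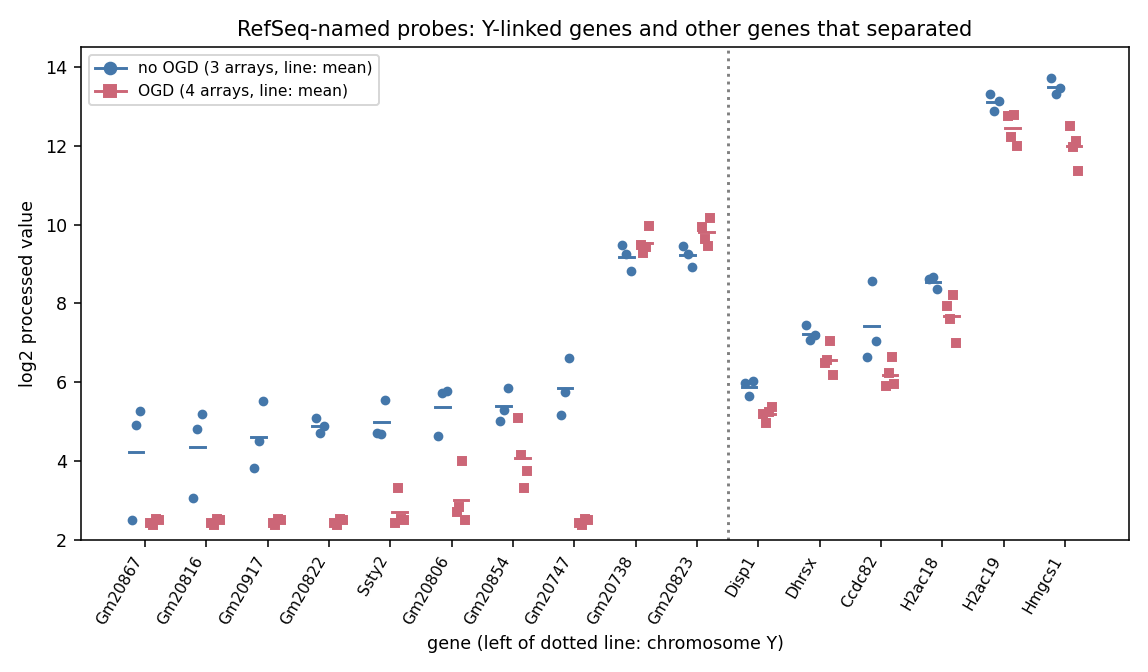
Log2 processed values of the 10 Y-linked probes of the table (left of the dotted line) and of 6 other RefSeq-named genes that separated. Circles are the 3 no OGD arrays, squares the 4 OGD arrays, and bars the group means. Gm20738 and Gm20823 are bright and not lower after OGD, 6 of the 8 dim Y-linked probes sit at the floor of about 2.5 on at least 3 OGD arrays, and Hmgcs1 has means of 13.50 without and 11.99 with OGD.

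Reference genes were read from the scanner signals, since the processed table has no row for them. Each is printed in 20 spots, and 13 of 15 gave signal well above background on all 7 arrays. Gusb did so on 1 array and Ldhal6b on 0. Of the 13, Gapdh, Ppia and Hprt were lower on every OGD array than on any no OGD array, and Gk was higher. Over all 59519 transcript probes of this fit, 6.13% separated downward and 5.34% upward. None of the 15 passed limma at an adjusted p under 0.05, 4 had an unadjusted p under 0.05, and 0.19% of all transcript probes (113) were called, 0.0336% higher and 0.156% lower. Gapdh, the glycolytic glyceraldehyde-3-phosphate dehydrogenase (chr6:125161852-125166467, GRCm38.p6), read 13.34, 13.21 and 13.17 on Day 6, Day 8 and 0 hr OGD and 12.88, 12.03, 12.37 and 12.01 at 2, 4, 6 and 8 hr OGD. The SD of the no OGD arrays was 0.09, and the 2 hr array lay nearest to them. The SLR was -0.92 ± 0.23 (SE, adjusted p of 0.222 in limma). With row as a block, which rests on the 2 hr array, it was -0.36. Ppia, the peptidyl-prolyl isomerase cyclophilin A, read 13.87, 14.02 and 14.57 without OGD and 13.29, 13.50, 13.74 and 13.18 with it, an SLR of -0.73 ± 0.22 (adjusted p of 0.278 in limma). Hprt, an enzyme of purine salvage, read 9.93, 10.07 and 10.30 without OGD and 9.48, 9.52, 9.76 and 9.32 with it, an SLR of -0.58 ± 0.14 (adjusted p of 0.211 in limma). In Ppia and Hprt 6 hr OGD was the OGD array nearest to the no OGD values.

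Gk, glycerol kinase, read 8.58, 8.48 and 8.06 without OGD and 9.20, 8.85, 8.69 and 9.47 with it, with the highest values at 2 and 8 hr. Its SLR was 0.68 ± 0.23 (SE, adjusted p of 0.324 in limma). In the exact permutation test over the 7 arrays these 4 genes reached p = 0.0571 (two-sided), the smallest that 35 assignments of 4 and 3 arrays allow. Adjusted over the reference genes, the permutation p was 0.214. Complete separation forces this smallest p, so the test adds nothing to the separation. The design cannot reach 0.05 by this test. The other 9 genes overlapped between groups. Rpl13a, Tuba1b and Actb had SLRs of -0.38, -0.36 and -0.24, Nono and Tfrc -0.19 and -0.01, and Hsp90ab1, Tbp, B2m and G6pd2 0.17, 0.25, 0.32 and 0.40. With 1 array left out they ranged from -0.55 to -0.25 for Rpl13a, -0.59 to -0.15 for Tuba1b and -0.37 to -0.07 for Actb. The ranges were 0.07 to 0.29 for Hsp90ab1, 0.20 to 0.48 for B2m and 0.23 to 0.59 for G6pd2. Actb, the cytoskeletal actin, read 12.44, 12.65 and 13.04 without OGD and 12.44, 12.40, 12.62 and 12.43 with it, so that Day 6 lay within the OGD range. With scaling to the 75th percentile the median SLR over all transcript probes moved from 0.00 to 0.23. Under it the SLRs of Gapdh, Ppia and Hprt were -1.05, -0.71 and -0.79 and that of Gk 0.47, so each of the 4 kept its direction, although Ppia then overlapped between groups. That of Hsp90ab1 became -0.037. Processed pseudogenes of Gapdh, Ppia and other housekeeping genes are near-identical copies that a probe may share.

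**Figure D5:**
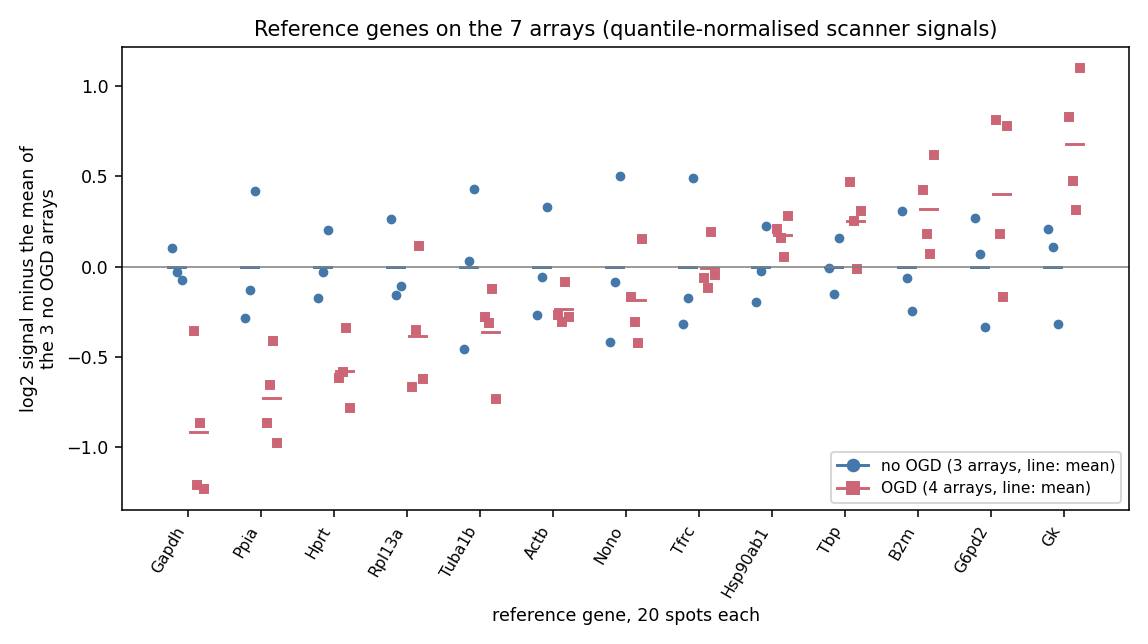
Quantile-normalised log2 signal of the 13 reference genes that were well above background on all 7 arrays, minus the mean of the 3 no OGD arrays. Circles are no OGD arrays, squares OGD arrays, and bars group means. Gapdh, Ppia and Hprt lie lower on all 4 OGD arrays and Gk higher, and the groups of the other 9 genes overlap.

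For the 4 reference genes that separated, the 250 bases before the transcript start used in the RefSeq promoter table are shown because oxygen-sensitive HIF factors are known to bind short core letters in promoters of glycolytic genes. In Gapdh that start lies inside the gene interval given above, and in the other 3 genes at its end. The sequences are from RefSeq (GRCm38.p6), 5′ to 3′ on the gene's strand, and capitals mark ACGTG or GCGTG on either strand.
Gapdh promoter, chr6:125165774-125166023, minus strand: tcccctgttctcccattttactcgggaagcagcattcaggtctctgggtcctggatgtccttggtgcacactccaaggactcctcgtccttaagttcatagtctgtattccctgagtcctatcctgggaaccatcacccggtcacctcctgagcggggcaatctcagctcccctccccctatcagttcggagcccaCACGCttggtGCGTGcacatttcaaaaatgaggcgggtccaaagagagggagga
Ppia promoter, chr11:6415617-6415866, plus strand: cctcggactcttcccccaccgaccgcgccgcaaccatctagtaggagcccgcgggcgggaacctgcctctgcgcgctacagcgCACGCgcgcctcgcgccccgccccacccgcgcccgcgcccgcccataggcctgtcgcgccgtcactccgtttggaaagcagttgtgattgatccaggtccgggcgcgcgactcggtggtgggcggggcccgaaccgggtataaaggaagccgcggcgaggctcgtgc
Hprt promoter, chrX:52987828-52988077, plus strand: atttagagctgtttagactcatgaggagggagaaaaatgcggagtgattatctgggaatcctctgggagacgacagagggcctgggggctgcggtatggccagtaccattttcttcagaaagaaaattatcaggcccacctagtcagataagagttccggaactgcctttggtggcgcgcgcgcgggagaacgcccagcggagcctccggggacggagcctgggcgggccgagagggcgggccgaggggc
Gk promoter, chrX:85776820-85777069, minus strand: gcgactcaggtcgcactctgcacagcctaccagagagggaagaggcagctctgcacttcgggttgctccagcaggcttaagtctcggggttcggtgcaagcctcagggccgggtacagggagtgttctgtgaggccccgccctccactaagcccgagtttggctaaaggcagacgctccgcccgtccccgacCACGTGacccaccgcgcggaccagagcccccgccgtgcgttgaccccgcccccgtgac
Gapdh holds GCGTG at 2 places, Ppia at 1 and Hprt none of the letters. Gk holds ACGTG once on each strand, as 2 overlapping matches in the same 6 bases. Of 32851 promoter windows of this length, 16.6% hold ACGTG, 28.2% GCGTG and 38.6% either. A match is a description of the letters and not a binding site.

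Of the numbered probes, named by identifier only, ASMM9PARTA050529 read 7.02, 6.77 and 7.10 without OGD and 8.89, 8.35, 9.41 and 9.20 with it. Its SLR was 2.00 ± 0.28 (SE), 3.99-fold, with an adjusted p of 0.0174 in limma. It was bright on all arrays, and its call held in 4 of the 7 fits that left out an array. ASMM9PARTA039304 rose from 10.99, 11.84 and 12.31 to 13.59, 13.67, 14.01 and 13.40, an SLR of 1.95 ± 0.32 (adjusted p of 0.0344 in limma, called in 1 of 7 such fits). ASMM9PARTA049829 fell from 6.98, 7.97 and 7.44 to 2.43, 2.38, 3.37 and 2.51, at least 8.37-fold, with an adjusted p of 0.000837 in limma, and its call held whichever array was left out and with row as a block (adjusted p 0.0223). ASMM9PARTA008270 fell from 8.79, 8.74 and 7.01 to 2.77, 2.38, 5.30 and 2.51, with 6 hr OGD between the other OGD arrays and the no OGD arrays. Its adjusted p was 0.0198 in limma, and it was called in 2 of 7 such fits. It was above background on 1 OGD array, 6 hr, and at the floor on 4 and 8 hr OGD, so no fold is given. ASMM9PARTA050529, ASMM9PARTA039304 and ASMM9PARTA008270 lost their calls with row as a block, with adjusted p of 0.293, 0.386 and 0.223 in limma. The SLRs of the first and second were then 1.93 and 1.87. With scaling to the 75th percentile ASMM9PARTA050529 and ASMM9PARTA039304 also lost their calls (adjusted p of 0.0577 and 0.0733 in limma), with SLRs of 1.93 and 1.81. In total 198 of 26719 numbered probes were called (0.741%), 23 higher and 175 lower.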

How the data were processed

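RNA of primary cortical neurons was measured on single-colour 8x60K arrays. The authors deposited scanner intensity per spot, extracted with Feature Extraction 11.0.1.1, with other per-spot values as flags (well above background, outlier, saturated), and processed intensity values of 29929 probes in a table, quantile normalized per the methods. Here the table was taken to log2 and OGD (n = 4) was compared with no OGD (n = 3) in limma 3.58.1 (R 4.3.3) with Benjamini-Hochberg adjustment over all table probes. Reference genes came from the intensity values, with outlier spots left out, spots averaged as log2 and the 7 arrays quantile normalized (59519 transcript probes without a missing value). SLR is the mean log2 value of OGD minus no OGD. A bound for probes not well above background sets the dim arrays of the lower group to the higher of their own value and the lowest table value of a probe well above background. The higher group keeps its own values, also on arrays where the probe was not well above background. Where there are such arrays, the bound holds only if those values are taken as measured.

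Members and lists were chosen with earlier results of these data known. Named probes were the reference genes, the 4 rises and 4 falls in each named class (2 for numbered, 12 for RefSeq-named probes) with the largest SLR among called and separated probes, filled with separated probes of smallest p, and the study's cluster lncRNAs. Gene names came from RefSeq (GRCm38.p6), in which 116 of 123 RefSeq accessions matched. The limma step was tested on simulated data. Alternatives were other normalizations and background corrections (scaling to the 75th percentile; normexp with an offset of 50, on median pixel signals), probe filters, variance models, the methods' t-test, left-out arrays, the 0 hr control alone, all 9 arrays with the scan as a block and, chosen after seeing the data, array row as a block. The number of arrays limits the precision. Python 3.11.15 with pandas 2.3.3, scipy 1.17.1 and matplotlib 3.10.9 was also used.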

Additional observations from a re-analysis of the deposited data

Results flagged for a closer look

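Of 41 sets of 4 OGD values examined for a sample far from the others, 1 stood out, where chance gives about 1 in 20. It was the class median of uc. probes, with a gap of 0.973 of the range. The 6 hr OGD array had a median deviation of -0.11 from the 7-array mean, against 0.14, 0.15 and 0.15 at 2, 4 and 8 hr OGD. Groups of 3 were not examined.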

How the results depend on the processing

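No paired analysis was possible because the replicate numbers of the 2 groups are only names and tie no OGD array to a no OGD array. The count of called probes, 229 over the table, ranged from 53 to 374 when 1 array was left out. It was 150 with scaling to the 75th percentile, 107 among probes well above background on all arrays, 113 over all transcript probes, 85 with all 9 arrays and the scan as a block, 55 against the 0 hr control alone (1 array, assumed to vary like the OGD arrays) and 34 with array row as a block. With array weights it was 11845, with 6679 higher and 5166 lower. The methods' t-test gave 6 after Benjamini-Hochberg. With normexp the calls split into 49 higher and 139 lower, against 27 and 202. The number of separated probes, 4848, ranged from 5356 to 11522 when 1 array was left out, and was 17227 against the 0 hr control alone. That comparison gave median SLRs of 0.49 for mouse lincRNA, 0.32 for uc. and -0.052 for numbered probes. The last was 0.048 among bright probes and ranged from -0.0084 to 0.035 with 1 array left out. Of the reference genes 4 separated, between 4 and 7 with 1 array left out and 10 against the 0 hr control alone, and 0 had an adjusted p under 0.05 in limma in any setting. Probes past an SLR of 1 among bright probes numbered 1356, 988, 516 and 2012 at 2, 4, 6 and 8 hr OGD and 663, 186 and 583 for Day 6, Day 8 and 0 hr OGD. Directions turned in uncalled results: with 1 array left out the SLR ranged from -0.40 to 0.064 for Nono, -0.17 to 0.23 for Tfrc, -1.32 to 0.24 for uc.64+, -0.69 to 0.081 for MM9LINCRNAEXON10527+, -0.69 to 0.078 for MM9LINCRNAEXON10225- and -0.34 to 0.88 for MM9LINCRNAEXON10523+. The last was -0.82 with row as a block, and Hsp90ab1 was -0.037 with scaling to the 75th percentile and -0.051 against the 0 hr control alone. The cause of these changes was not tested, other than the fewer probes or arrays some settings use. Signal over background limits the dim probes, whose falls are bounds.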

Other observations

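Numbered probes that fell were unevenly placed in the design's numbering, a pattern noticed after the values were seen and not tested. Numbers 10000 to 13999 hold 2285 of the 26719 numbered probes in the table (8.55%) and 44 of the 175 called falls (25.1%), with 0 called rises. All 44 were well above background on the 3 no OGD arrays and 5 were so on all OGD arrays. Their median log2 level was 7.34, 7.70 and 8.24 on Day 6, Day 8 and 0 hr OGD and 4.25, 4.25, 4.97 and 4.41 at 2, 4, 6 and 8 hr OGD. Day 2 and Day 4, recorded in another scan, had medians of 7.54 and 6.02. On the OGD arrays 15 of the 44 were not well above background on any array. A probe outside this numbering with a like profile is that of ENSMUST00000121099, at 8.00, 8.56 and 8.97 without OGD and 5.12, 4.75, 5.35 and 4.92 with it (adjusted p of 0.000865 in limma), called whichever array was left out. The transcripts behind the numbers are not named in the tables used here.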
